A study of Mus musculus with 6 samples.

Results

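Snai1, Snai2, Twist1, Twist2, Zeb1 and Zeb2, which hold or drive cells in a mesenchymal state, and Grhl2, Elf3, Ehf and Ovol1, which maintain an epithelial state, were followed on arrays of cultured mouse liver cells. These 10 genes were taken by name, and all 13 probes whose transcript accession belongs to one of them were read, of 39429 probes on the array that were not controls and 20659 named genes. The series measured total RNA of CD63+ cells from adult mouse liver on 6 arrays of 1 colour (Cy3). CD63 is a tetraspanin, a membrane protein of late endosomes. The cells of 3 arrays followed liver injury by DDC, which leads to porphyrin plugs in bile ducts and to cholestasis, and those of the other 3 arrays came without injury. The labels give no strain, age, genotype or dose.

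Both groups had been sorted and then cultured in 1 medium, which held serum and nicotinamide, the growth factors EGF and HGF, dexamethasone and an insulin supplement. The levels are those of cultures, not of cells taken straight from liver. The series calls its material 6 cell lines, and nothing says that they came from separate animals. VEGF and bFGF were added to some cultures that the labels do not tie to a sample, so group and this treatment cannot be told apart. In these cultures fewer cells of a type and less RNA per cell cannot be told apart either. Cd63 itself was well above background on all 6 arrays and differed by -0.11 ± 0.17 on the log2 scale (SE, adjusted p = 0.677). The biliary keratins Krt19 and Krt7 were well above background on all 6 arrays, while albumin, Alb, was so on 2 of the 3 DDC injury arrays and on all 3 no-injury arrays. The biliary markers did not move together. Krt19, Krt7 and Spp1 differed by 0.37, 0.16 and -0.25 (limma, adjusted p = 0.258, 0.495 and 0.383). Sox9 and Epcam were lower with DDC injury, by 1.57 ± 0.28 and 2.58 ± 0.24 (SE, limma, adjusted p = 0.0217 and 0.00512). Genes of hepatocyte secretory products were far lower with DDC injury: Alb differed by -6.14 ± 0.65 and transthyretin, Ttr, by -3.94 ± 0.58 (SE, adjusted p = 0.00658 and 0.0131). Apolipoprotein gene Apoa1, well above background on none of the DDC injury arrays, met the filter through the no-injury arrays alone. It was at least 42.5-fold lower, and its call (limma, adjusted p = 0.00311) is that of the signals as measured.

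Processed signals had a 75th percentile of 1441 to 2271 intensity units on the DDC injury arrays and of 2062 to 2203 on the no-injury arrays, and no spot was saturated. Levels below are log2 of the processed signal minus this percentile of the same array, so that 0 is the percentile itself. The DDC injury arrays lay further apart than the no-injury arrays: the spread of differences between 2 arrays was 7.1 to 17.4 times the noise of repeated spots with DDC injury and 1.34 to 2.51 times with no injury. Replicates 1 and 3 of the no-injury group agreed within the noise of repeated spots, tested over 172 bright probes with 10 spots each (chi-square 178, p = 0.345). Other probes were not part of this test. Single dim ones differed, such as that of the leukocyte gene Ptprc, at -6.55 on replicate 1 and -4.43 on replicate 3. By the result on bright probes, these replicates were averaged and counted as 1 sample. This leaves 3 samples with DDC injury and 2 without. The comparison's p-values measure only the spread between these samples, which may be technical. A separate scan day held DDC injury replicate 1 alone, and each scan held arrays of 1 group only, so scan and group cannot be told apart.

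Epithelial cells are joined by E-cadherin junctions, tight junctions and desmosomes, and they can give these up for a mobile, matrix-producing mesenchymal state. Snai and Zeb proteins are zinc finger repressors that bind E-boxes in promoters of epithelial genes such as Cdh1, and Twist proteins are basic helix-loop-helix factors that act with E proteins. Grhl2, the Ets factors Elf3 and Ehf and the zinc finger factor Ovol1 act the other way, and Grhl and Ovol factors repress Zeb1. In liver, these factors have been studied in stellate cells, in cholangiocytes after injury and in cultured hepatocytes.

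Most of the mesenchymal factors that the arrays could measure were higher in the DDC injury group. Of the 13 probes, 10 were tested, since they were well above background on at least 3 of the 6 arrays. Of these, 4 rose, those of Snai1, Twist2 and Zeb1 and 1 of 2 of Zeb2, and 1 fell, that of Elf3 (limma, adjusted p under 0.05 over all probes). Over all 27426 probes tested, 29.3% passed, 15.5% higher and 13.8% lower. The other 5 tested probes, of Snai2, Grhl2 and Ehf and the other of Zeb2, did not pass. The groups did not overlap for 6 of the 10 tested probes, against 61.1% of all tested probes (29.6% above and 31.5% below), so that this share was close to the background. Each call rests on no-injury replicate 2 as a second sample: without it, or with 1 mean of the 3 no-injury arrays, none of the 10 probes passed (limma), and over all probes 292 were then higher and 108 lower, or 279 and 133. At an unadjusted p under 0.05, 3 probes were higher and 1 lower in either fit, with Zeb1 no longer among them.

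Snai1, the Snail repressor of E-cadherin, was dim in both groups and brighter after DDC injury. Its probe A_51_P165087 read -4.42, -3.53 and -4.12 on the DDC injury arrays, against -6.32, -6.83 and -6.25 on the no-injury arrays. The groups did not overlap, and all 6 arrays were well above background, although the no-injury signals were only 19.4 to 28.1 intensity units. The DDC injury group averaged -4.03 ± 0.45 (SD, n = 3) and the no-injury group -6.56 ± 0.39 (SD, n = 2). Snai1 rose by 2.53 ± 0.34 (SE, 5.78-fold, adjusted p = 0.0109). The size depends on how background was treated: the difference was 1.29 with normexp correction and 1.77 in the authors' deposited values, with adjusted p = 0.0209 and 0.00439.

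Snai2, the Slug repressor, was bright, and its DDC injury arrays disagreed. Probe A_51_P305547 read 3.77, 1.80 and 3.89 on the DDC injury arrays, against 1.55, 1.60 and 1.51 on the no-injury arrays. DDC injury replicates 1 and 3 were far above the no-injury arrays, replicate 2 was only just above them, and the groups did not overlap. The difference of 1.59 ± 0.73 (SE) did not pass (adjusted p = 0.178), and its 95% interval ran from -0.36 to 3.54. Without DDC injury replicate 2 the difference was 2.26 ± 0.09 (SE) and passed (adjusted p = 0.00453).

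Twist2, also called Dermo1 and a factor of dermal and osteoblast precursors, rose with little spread between arrays. Its probe A_51_P165504 read -2.50, -2.24 and -2.48 on the DDC injury arrays, against -4.55, -4.68 and -4.61 on the no-injury arrays. Every DDC injury array was above every no-injury array by more than either group's own range. Twist2 rose by 2.22 ± 0.14 (SE, 4.67-fold, adjusted p = 0.00236). The only probe of its paralogue Twist1, A_52_P20906, was not well above background on any DDC injury array and was so on 1 of 3 no-injury arrays. Its processed signals were 2.19, 2.45 and 3.41 intensity units on the DDC injury arrays, against 3.15, 4.17 and 11.2 on the no-injury arrays. It was not tested, and no fold is given.

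Zeb1 and Zeb2, the paired zinc finger and homeodomain repressors, were both higher, Zeb1 by less. The Zeb1 probe A_52_P546635 read 1.38, 1.26 and 1.58 on the DDC injury arrays, against 0.81, 0.73 and 0.75 on the no-injury arrays, with no overlap. Zeb1 rose by 0.65 ± 0.14 (SE, 1.57-fold, adjusted p = 0.0335). This call ended without DDC injury replicate 3 (0.56, adjusted p = 0.0706), under quantile normalization (0.63, adjusted p = 0.0518), without the filter on dim probes (0.65, adjusted p = 0.0747) and with the scan as a random block (0.65, adjusted p = 0.0835), while the direction held in each of these fits. Zeb2 had 2 probes of the same transcript, and they disagreed. The brighter, A_52_P596008, read -0.27, -0.52 and -0.32 on the DDC injury arrays, against -2.09, -2.09 and -2.15 on the no-injury arrays. It rose by 1.73 ± 0.13 (SE, 3.32-fold, adjusted p = 0.00341), with the groups well apart. The dimmer, A_52_P526372, read -4.32, -5.21 and -4.35 on the DDC injury arrays, against -5.12, -5.12 and -5.01 on the no-injury arrays. Here DDC injury replicate 2 was below all no-injury arrays, the groups overlapped, and the difference of 0.47 ± 0.33 (SE, 95% interval -0.41 to 1.34) did not pass (adjusted p = 0.349). Without DDC injury replicate 2 this probe passed as well (0.76, adjusted p = 0.0117).

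Among the epithelial factors, Elf3, an Ets factor of lining epithelia also called Ese1, was the only one whose probe passed. Its probe A_51_P480241 read -1.11, -1.24 and -1.09 on the DDC injury arrays, against -0.36, -0.34 and -0.38 on the no-injury arrays. All DDC injury arrays were below all no-injury arrays. Its difference was -0.80 ± 0.11 (SE, 1.74-fold lower), a fall that passed (adjusted p = 0.0119).

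Ehf, a second epithelium-specific Ets factor also called Ese3, had 2 probes that agreed on an uneven picture. The brighter, A_66_P109519, read -2.57, -0.87 and -2.64 on the DDC injury arrays, against -1.53, -1.52 and -1.55 on the no-injury arrays. DDC injury replicates 1 and 3 were below the no-injury arrays and replicate 2 was above them, so the groups overlapped. Its difference of -0.50 ± 0.63 (SE, 95% interval -2.17 to 1.18) did not pass (adjusted p = 0.599). The other, A_55_P2070809, read -4.58, -2.83 and -4.12 on the DDC injury arrays, against -3.51, -3.64 and -3.60 on the no-injury arrays, with the same replicate above. Its difference was -0.25 ± 0.57 (SE, adjusted p = 0.775). Without DDC injury replicate 2 the brighter probe differed by -1.075 and passed (adjusted p = 0.00787), and the other differed by -0.753 and did not (adjusted p = 0.0711).

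Grhl2, which controls Cdh1 and claudin genes in epithelia, and Ovol1 lay near the detection limit. The brighter Grhl2 probe, A_55_P1981322, read -7.37, -6.97 and -6.70 on the DDC injury arrays, against -6.93, -7.41 and -6.96 on the no-injury arrays, and was well above background on 2 of 3 DDC injury arrays and 3 of 3 no-injury arrays. The groups overlapped, and the difference of 0.16 ± 0.27 (SE, 95% interval -0.56 to 0.89) did not pass (adjusted p = 0.685). Grhl2 lies on chromosome 15, whose 618 tested genes had a median difference of 0.336, against -0.0679 over all tested genes, and the part of this shift in its value was not tested. Its other probe, A_51_P408821, was not well above background on any of the 6 arrays. The Ovol1 probe A_52_P441954 was so on 0 of 3 DDC injury arrays and on 1 of 3 no-injury arrays. Its processed signals were 2.72, 11.01 and 7.27 intensity units on the DDC injury arrays, against 7.68, 5.88 and 11.9 on the no-injury arrays, and it was not tested.

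**Figure D1:**
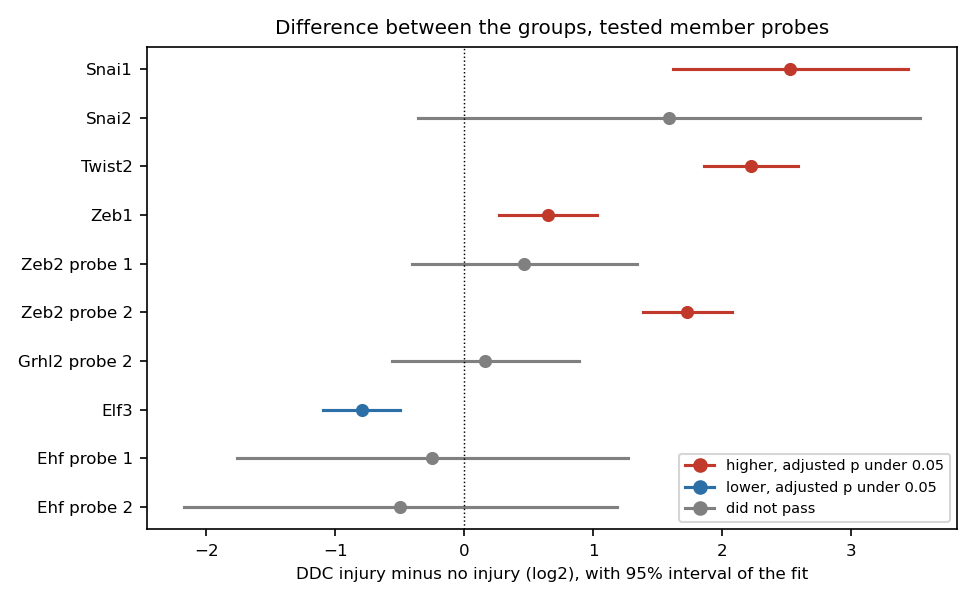
Log2 difference, DDC injury minus no injury, for the 10 tested probes, with the 95% interval of the fit, red for higher, blue for lower and grey for probes that did not pass. Snai1 (2.53), Twist2 (2.22), Zeb1 (0.65) and probe 2 of Zeb2 (1.73) lie to the right of 0 and Elf3 (-0.80) to the left, and the intervals of Snai2 and Ehf are the widest.

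Within the DDC injury group, Snai2 and Ehf differed between the arrays in opposite senses. Relative to the no-injury mean, Snai2 stood at 2.21 and 2.32 on DDC injury replicates 1 and 3 and at 0.24 on replicate 2. The brighter Ehf probe stood at -1.04 and -1.11 on replicates 1 and 3 and at 0.66 on replicate 2, and the other Ehf probe at -0.98, -0.53 and 0.77 in the same order. The array that was lowest in Snai2 was thus the one highest in Ehf. The dimmer Zeb2 probe followed Snai2, at 0.77 and 0.75 on replicates 1 and 3 and -0.12 on replicate 2. Of the factors that passed, Zeb1 stood at 0.63 and 0.83 on replicates 1 and 3 and at 0.50 on replicate 2, and the brighter Zeb2 probe at 1.84 and 1.78 and at 1.58, so both were also lowest on replicate 2, by less than Snai2. Twist2 stood between 2.13 and 2.39 on the 3 arrays and Elf3 between -0.89 and -0.74. Snai1 was highest on replicate 2, at 3.02, against 2.13 and 2.43 on replicates 1 and 3. Replicate 2 also stood apart from the other DDC injury arrays over the 172 bright probes with repeated spots. The spread of differences was 15.2 and 17.4 times the spot noise against replicates 1 and 3, and 7.1 times between those. The values above are of single arrays, and no test was made of differences between replicates in these genes.

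**Figure D2:**
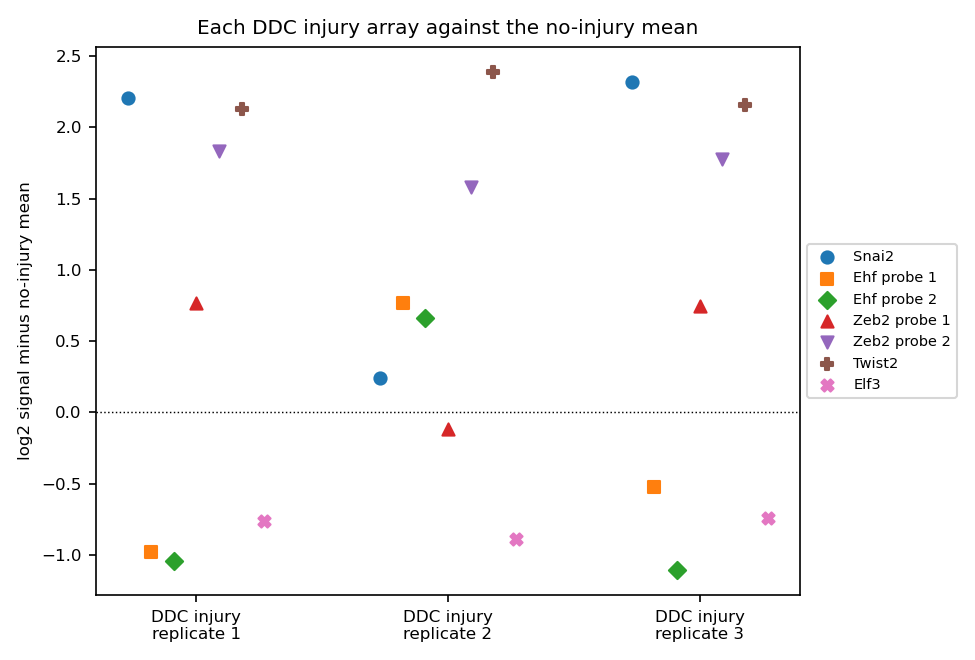
Log2 signal of each DDC injury array minus the no-injury mean, for 5 fate factors with 7 probes, 1 symbol per probe. On replicate 2, Snai2 lies near the line at 0 (0.24) and both Ehf probes lie above it (0.77 and 0.66), while on replicates 1 and 3 Snai2 is above 2 and both Ehf probes are below 0.

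The few genes with the most similar profiles were taken by the distance between centred log2 levels over the 6 arrays, among the brightest probes of 13159 genes well above background on all of them. They share these arrays and the group difference with the member, so likeness is a description. Nearest to Twist2 were Pramel39 (0.0800), Cenpq (0.124) and Syngr1 (0.128), and nearest to the brighter Zeb2 probe Uck2 (0.0688), Xrcc6 (0.0782) and Fam83d (0.126). Nearest to Elf3 were Il18bp (0.0642), Usp24 (0.0681) and Dnaja4 (0.0783), and to Zeb1 Trim8 (0.0583), Abl2 (0.0869) and Nop58 (0.109). The neighbours of Snai2, Ehf and Snai1 were more distant: Efcab3 (0.224), Trib3 (0.235) and Arid5a (0.265) for Snai2, Pdk4 (0.262), Cybb (0.285) and Sema3c (0.359) for Ehf, and Chaf1a (0.333), Gm11544 (0.373) and Rad54l (0.400) for Snai1.

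The promoters of the factors and of epithelial genes were read for the E-box that Snai and Zeb proteins bind, CACCTG on either strand (CAGGTG on the other). Windows of 250 bases before the gene start, from RefSeq on build GRCm38.p6, were at hand for 5 of the 10 factors, namely Snai1, Twist1, Twist2, Zeb2 and Elf3. This E-box lay in the windows of Snai1 and Elf3 and in none of those of the other 3 factors. Of all 27025 genes with a window, 19.4% held it, and so did 17.2% of all 32851 windows. The windows below are those of these 2 factors, of Epcam and Crb3, which are epithelial genes that fell and hold several matches, and of Krt18, which holds 1 and did not pass. They run 5′ to 3′ on the strand of the gene and end at its start, and capitals mark the E-box.
Snai1 (chr2:167537945-167538194, plus strand): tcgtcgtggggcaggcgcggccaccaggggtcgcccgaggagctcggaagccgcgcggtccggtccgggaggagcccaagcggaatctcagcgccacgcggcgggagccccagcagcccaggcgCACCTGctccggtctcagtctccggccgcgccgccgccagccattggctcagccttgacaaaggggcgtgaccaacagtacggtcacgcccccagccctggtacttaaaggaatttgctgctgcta
Elf3 (chr1:135258473-135258722, minus strand): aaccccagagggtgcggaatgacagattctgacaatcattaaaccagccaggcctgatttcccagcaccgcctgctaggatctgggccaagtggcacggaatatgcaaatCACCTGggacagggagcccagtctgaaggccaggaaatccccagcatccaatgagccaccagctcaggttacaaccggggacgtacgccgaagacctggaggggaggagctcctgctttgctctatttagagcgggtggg
Epcam (chr17:87635729-87635978, plus strand): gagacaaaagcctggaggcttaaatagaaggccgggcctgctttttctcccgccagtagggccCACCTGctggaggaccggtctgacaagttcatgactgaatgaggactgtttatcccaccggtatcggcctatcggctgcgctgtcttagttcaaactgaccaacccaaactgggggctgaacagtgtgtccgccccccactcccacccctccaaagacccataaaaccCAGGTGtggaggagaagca
Crb3 (chr17:57061951-57062200, plus strand): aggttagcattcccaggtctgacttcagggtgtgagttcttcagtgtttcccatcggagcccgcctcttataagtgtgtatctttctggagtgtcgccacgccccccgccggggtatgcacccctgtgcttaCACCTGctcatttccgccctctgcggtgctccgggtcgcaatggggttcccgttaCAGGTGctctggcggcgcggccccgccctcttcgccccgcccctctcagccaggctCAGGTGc
Krt18 (chr15:102027966-102028215, plus strand): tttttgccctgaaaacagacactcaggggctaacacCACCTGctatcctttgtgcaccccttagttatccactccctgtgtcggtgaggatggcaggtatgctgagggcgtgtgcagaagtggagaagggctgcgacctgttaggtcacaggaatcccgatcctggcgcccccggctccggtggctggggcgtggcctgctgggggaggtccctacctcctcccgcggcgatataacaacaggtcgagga
The match lay 126 bases before the start in Snai1 and 140 in Elf3, counted to its first base. In human cells SNAI1 is known to bind an E-box of its own promoter. Epcam held 2 matches, Crb3 held 3 and Krt18 held 1. Among epithelial genes whose windows are not printed, Ocln and Cldn7 held 2 matches each, Patj and F11r 1 each, and Marveld2 and Cldn3 none. Ocln, Patj and Marveld2 fell, while Cldn7, F11r and Cldn3 did not pass. A match is no evidence of binding, and no factor's binding was measured here.

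Genes around the factors were described in 5 lists, each gene by its brightest probe. Over all 15617 genes tested, 30.8% passed, 16.2% higher and 14.6% lower, with a median difference of -0.07. Epithelial genes were lower as a group. Of 38 junction, polarity, protease and keratin genes, 34 were tested, 21 fell, none rose and 13 did not pass, with a median of -1.53. At the level of single arrays the median stood at -2.06, -1.15 and -1.48 against the no-injury mean on DDC injury replicates 1, 2 and 3. E-cadherin, Cdh1, fell by 0.97 ± 0.11 (SE, 1.96-fold lower, adjusted p = 0.00755), with 3.33, 3.31 and 3.43 on the DDC injury arrays, against 4.22, 4.37 and 4.35 on the no-injury arrays. Epcam, an epithelial adhesion protein, fell by 2.58 ± 0.24 (SE, adjusted p = 0.00512). The tight junction protein occludin, Ocln, fell by 3.07 ± 0.11 and P-cadherin, Cdh3, by 2.40 ± 0.13 (SE, adjusted p = 0.00110 and 0.00183). Marveld2, tricellulin of tricellular junctions, was not well above background on any DDC injury array and met the filter through the no-injury arrays alone. It was at least 182-fold lower, and its call (limma, adjusted p = 0.00107) is that of the signals as measured. Dsc2, also among the falls, met the filter in the same way. The polarity scaffold Patj fell by 4.31 ± 0.11 (SE, adjusted p = 0.00107) by its brightest probe, but its 5 probes ranged from -4.31 to -0.58 and 2 of them did not pass. The 13 genes that did not pass ranged from -2.36 to 0.44. The claudin genes Cldn3 (-2.36) and Cldn7 (-1.22), Prss8 (-1.12), Ppl (-0.80) and Rab25 (-0.24) had negative differences, as had Esrp1 (-0.72) and Esrp2 (-0.29), regulators of epithelial splicing. Krt7, Krt18, Krt19, Pkp2, Pkp3 and the junction protein F11r differed by between -0.07 and 0.44. Without DDC injury replicate 3 the list held 16 falls, and without no-injury replicate 2 it held 3.

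Of the 21 epithelial genes with a promoter window, 15 held the E-box CACCTG on either strand, against 0 of 19 mesenchymal genes, 6 of 15 other epithelial factors, 2 of 17 other mesenchymal factors, 0 of 27 partners and regulators, and the 19.4% of all genes given above. Within the epithelial list, it was held by 7 of 12 genes that fell, by 5 of 6 tested genes that did not pass and by all 3 with a window that were not tested. The Grhl motif AACCNGTT, on either strand, lay in windows of 2 of the 21 epithelial genes and of no member, against 2.00% of all genes. These shares describe the letters of these windows, and genes of a list were not drawn at random.

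Mesenchymal genes split. Of 34, 28 were tested, 8 rose, 1 fell and 19 did not pass, with a median of 0.06. Thus 28.6% were higher and 3.57% lower, against 16.2% and 14.6% of all tested genes. Those that rose encode matrix, receptor and motility proteins. S100a4, a calcium-binding protein of motile cells, rose by 4.02 ± 0.45 (SE, adjusted p = 0.00722). The fibrillar collagen chain Col5a1 rose by 5.99 ± 0.33 (SE, adjusted p = 0.00195), with well above background signals on 1 of 3 no-injury arrays. The gelatinase Mmp2 was not well above background on any no-injury array and met the filter through the DDC injury arrays alone. It was at least 4.58-fold higher, and its call (limma, adjusted p = 0.00256) is that of the signals as measured. Col6a1, Col6a3, Pdgfra and Itga5 rose too, and the fibroblast protease gene Fap fell by 2.06 ± 0.21 (SE, adjusted p = 0.00608). The classical markers of the mesenchymal state did not pass: vimentin, Vim, differed by 0.02 ± 0.18 (its sign turned under quantile normalization and in the authors' deposited values), fibronectin, Fn1, by -0.11 ± 0.18 and N-cadherin, Cdh2, by -0.32 ± 0.15 (SE, adjusted p = 0.941, 0.688 and 0.181), and each was well above background on all 6 arrays. The DDC injury arrays disagreed over several others. The smooth muscle actin Acta2 read -7.36, -3.48 and -2.05 on the DDC injury arrays, against -3.03, -2.02 and -2.52 on the no-injury arrays, and the collagen chain Col3a1 read -8.54, -3.64 and -1.79, against -3.86, -5.02 and -3.04. Both were lowest on DDC injury replicate 1, and these 2 genes were chosen after their values were seen. Without no-injury replicate 2 the list held 1 rise, and without DDC injury replicate 3 it held 5.

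**Figure D3:**
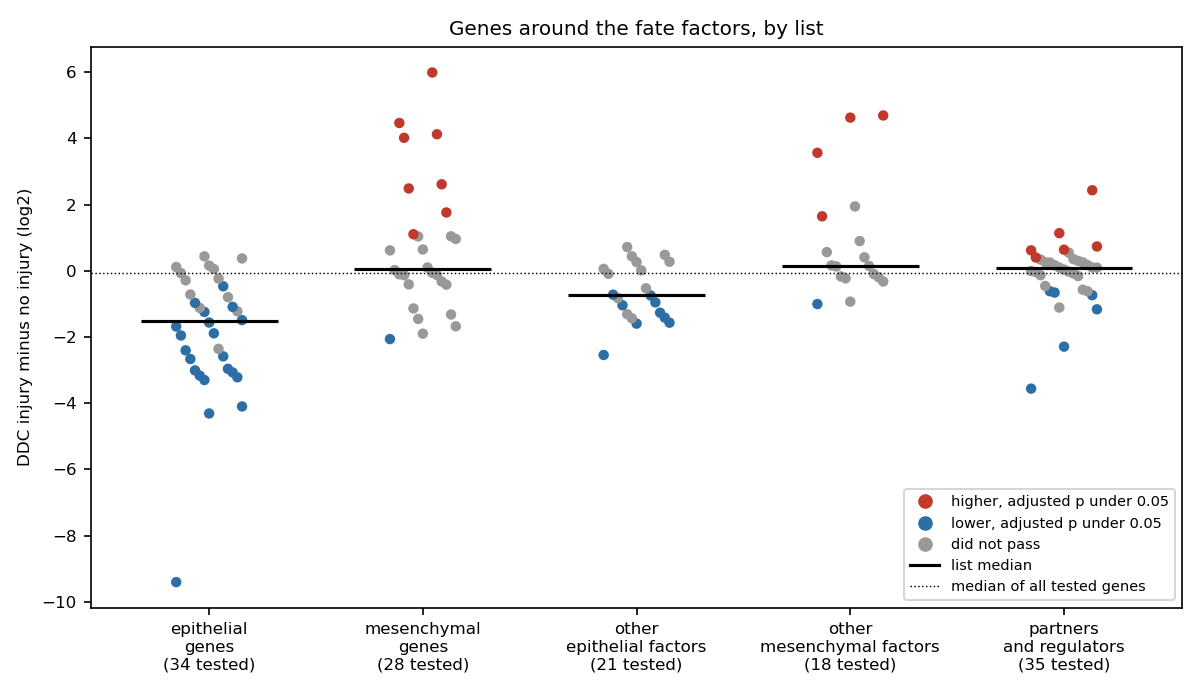
Log2 difference, DDC injury minus no injury, for each tested gene of the 5 lists, by its brightest probe, red for higher, blue for lower, grey for genes that did not pass, with a line at each list's median and a dotted line at the median of all tested genes (-0.07). The epithelial genes and the other epithelial factors have medians of -1.53 and -0.75, and the 3 other lists lie between 0.06 and 0.15.

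Other transcription factors of the epithelial state were lower in part. Of 21 tested, 9 fell and none rose, with a median of -0.75. The falls were 42.9% of the list, against 14.6% of all tested genes. Tfcp2l1, a grainyhead-related factor of duct epithelia, fell by 2.54 ± 0.11 by its brightest probe (SE, adjusted p = 0.00140), while its second probe differed by 0.25 and did not pass. Grhl1, a paralogue of Grhl2, fell by 1.42 ± 0.13 and Klf5, a factor of proliferating epithelia, by 0.96 ± 0.12 (SE, adjusted p = 0.00472 and 0.00950). Ovol2, the paralogue of Ovol1, which was too dim to test, was well above background on all 6 arrays and fell by 1.04 ± 0.26 (SE, adjusted p = 0.0462), and Sox9, a regulator of biliary cells, fell by 1.57 ± 0.28 (adjusted p = 0.0217). The hepatocyte factors Hnf4a (-0.09) and Foxa2 (0.06) did not pass. Without no-injury replicate 2 the list held 1 fall.

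Of 18 tested factors of the mesenchymal state other than the 6 described, 4 rose, 1 fell and 13 did not pass, with a median of 0.15. Thus 22.2% were higher and 5.56% lower, against 16.2% and 14.6% of all tested genes. Tbx18, a factor of mesothelial and perivascular lineages, was at least 17.2-fold higher and the paired-type homeobox gene Prrx2 at least 15.1-fold higher. Neither was well above background on any no-injury array, so both met the filter through the DDC injury arrays alone. Their calls (limma, adjusted p = 0.00197 and 0.00794) are those of the signals as measured, not of these bounds. The homeobox gene Meox1 rose by 3.56 ± 0.54 and the osteoblast factor Runx2 by 1.64 ± 0.31 (SE, adjusted p = 0.0144 and 0.0231). Sox4 fell by 1.00 ± 0.12 (SE, adjusted p = 0.00834) by its brighter probe, while the other differed by -0.17 and did not pass. Snai3, the third Snai gene, was well above background on 1 DDC injury array and on no no-injury array and was not tested. Without no-injury replicate 2, as without DDC injury replicate 3, 1 gene of this list rose.

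Partners and regulators of the factors moved both ways, at shares near those of all genes: of 35 tested, 6 rose and 6 fell. Id4, an inhibitor of basic helix-loop-helix dimers, rose by 2.43 ± 0.24 and Ezh2, the Polycomb methyltransferase that Snai1 recruits in human cells, by 1.14 ± 0.13 (SE, adjusted p = 0.00576 and 0.00790). The other Id genes went the other way. Id3 fell by 0.66 ± 0.15 (SE, adjusted p = 0.0388), and Id1 (-0.57) and Id2 (-1.11), both far brighter than Id4, did not pass. The ligand gene Tgfb1 rose by 0.73 ± 0.11 and the Smad corepressor Tgif1 by 0.64 ± 0.12 (SE, adjusted p = 0.0148 and 0.0256). Tgfb3 fell by 3.56 ± 0.12 (SE, adjusted p = 0.00107), and Btrc, the ubiquitin ligase subunit that marks Snai1 for degradation, by 2.29 ± 0.17 (adjusted p = 0.00341), with its second probe also lower by 0.72. The Smad corepressor Ski fell by 0.62 ± 0.11 (SE, adjusted p = 0.0201). Gsk3b, a kinase that phosphorylates Snai1 ahead of its degradation, fell by 1.16 ± 0.20 (SE, adjusted p = 0.0181) by its brightest probe, while its 2 other probes differed by 0.30 and -0.19 and did not pass. Without no-injury replicate 2, none of these genes rose and 1 fell (limma), and without DDC injury replicate 3, 2 rose and 3 fell.

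Markers of other liver cells were measured beside these groups. Of 10 tested markers of leukocytes and Kupffer cells, 1 fell, Itgam, by 1 of its 3 probes, and 0 of 7 endothelial and 0 of 4 stellate cell and fibroblast markers passed (limma). Their summed levels, in multiples of the array's 75th percentile, were 3.05 to 6.82 on the DDC injury arrays and 8.26 to 8.92 on the no-injury arrays for leukocytes, 0.176 to 0.622 and 0.563 to 0.835 for endothelium, and 6.22 to 8.68 and 6.21 to 6.89 for stellate cells and fibroblasts. Most of the leukocyte sum came from Cd14, which differed by -0.78 ± 0.42 (SE) and did not pass (limma, adjusted p = 0.235). Ptprc, another marker of this list, read only -6.69 to -4.20 over the 6 arrays. The Kupffer cell markers Clec4f and Cd5l and the stellate cell and fibroblast markers Reln, Rgs5, Hand2 and Dpt were well above background on 0 of the 6 arrays. The endothelial and leukocyte medians were lowest on DDC injury replicate 1, at -2.63 and -2.38 against the no-injury mean. Of 6 tested mesothelial markers 3 fell, namely Upk1b with a log2 difference of -7.73, Upk3b and Wt1. Upk3b was at least 5.44-fold lower and met the filter through the no-injury arrays alone. Wt1 was well above background on 1 of 3 DDC injury arrays and on 3 of 3 no-injury arrays. The summed level of the list was 37.6 to 43.0 on the DDC injury arrays and 36.7 to 39.0 on the no-injury arrays, and most of it came from Msln and Krt19, which differed by 0.15 and 0.37 and did not pass. The part of these markers and of the hepatocyte genes in the values of the fate factors was not tested. Among the 5 arrays scanned on 1 day, all but DDC injury replicate 1, the differences were 2.73 for Snai1, 2.27 for Twist2, 0.66 for Zeb1, 1.68 for the brighter Zeb2 probe and -0.81 for Elf3, and all 5 passed (adjusted p = 0.00407 to 0.0417). Within this day each scan still held arrays of 1 group only, so scan and group cannot be told apart here either.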

How the data were processed

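The members and gene lists were chosen with earlier results of these data known. Per the file headers, the authors scanned arrays of Agilent design 026655 and quantified spots with Feature Extraction 11.0.1.1, and the values are intensity units: the processed signal, background-subtracted and detrended on each array, and the median signals of spot and local background. A table of log2 values that the authors deposited for these arrays has column medians of 6.921 to 6.927. Its starting column and centring are not given in the sources used here, and the submitters' processing notes name limma without a version.

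Spots marked as outliers were left out, repeated spots averaged, and log2 signals set relative to each array's 75th percentile. Probes were named by RefSeq accession (27234 with 1 symbol, 0 with several, 12195 with none). The array annotation is of build mm9, so no gene coordinates are given beyond the promoter windows. The filter kept probes that were well above background on 3 or more of the 6 arrays and had 2 or more values per group. They were fitted with limma 3.58.1 in R 4.3.3 (lmFit, eBayes, two-sided, Benjamini-Hochberg over 27426 probes, threshold 0.05). The code was tested on simulated data. The rule names every member probe, the genes with the 3 nearest profiles, Cdh1, Epcam, Vim, Cdh2, Fn1 and Cd63, and per list up to 4 genes each way with the smallest adjusted p that passed. Some genes that this rule names are not reported here. Other list genes named in the text were chosen after their values were seen. Bounds set dim arrays at the lowest signal well above background. Genes given as bounds met the filter through the arrays of 1 group alone. The adjusted p beside a bound is that of the signals as measured, not of the bound. The number of arrays limits the precision. The alternatives were 6 fits without 1 array and 10 others, and normexp used the median signal, as the files hold no mean signal.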

Additional observations from a re-analysis of the deposited data

How the results depend on the processing

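The 4 rises and 1 fall among the fate factors were counted again in 16 other fits, all with limma. With 1 mean of the no-injury arrays in place of 2 samples, 0 probes rose and 0 fell at the adjusted threshold. Without 1 array at a time, 0 to 6 rose and 0 to 2 fell, the fewest without no-injury replicate 2 and the most without DDC injury replicate 2, where Snai2, the dimmer Zeb2 probe and the brighter Ehf probe passed as well. Calls were also more frequent over all probes without DDC injury replicate 2. Of 26809 probes tested in that fit, 5490 rose and 4767 fell, against 4243 and 3788 of 27426 in the main fit. The other 9 alternatives gave 3 or 4 rises and 1 fall. With the no-injury arrays averaged into 1, epithelial genes held 3 falls, mesenchymal genes 1 rise and 0 falls, other epithelial factors 1 fall, other mesenchymal factors 1 rise and 0 falls, and partners and regulators 0 rises and 1 fall. With all 6 arrays separate, 1 epithelial gene, 2 other epithelial factors and 7 other mesenchymal factors rose. In the authors' deposited values 2 other epithelial factors rose and 2 other mesenchymal factors fell, and under quantile normalization 2 other epithelial factors rose. Without the filter on dim probes 3 partners and regulators rose and 3 fell, and with the scan as a random block 3 rose. Without 1 array at a time, the counts ran from 0 to 1 rise and 3 to 22 falls for epithelial genes, 1 to 11 and 0 to 2 for mesenchymal genes, 0 to 2 and 1 to 9 for other epithelial factors, 1 to 5 and 0 to 1 for other mesenchymal factors, and 0 to 7 and 1 to 7 for partners and regulators.

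The sign turned for 4 probes that did not pass. The dimmer Ehf probe differed by 0.0697 under quantile normalization, by 0.0413 in the authors' values and by between -0.753 and 0.12 without 1 array, the last without DDC injury replicate 1. Grhl2 differed by between -0.0688 and 0.343 without 1 array, the first without no-injury replicate 2. Vim differed by -0.17 under quantile normalization, by -0.18 in the authors' values, by -0.00295 with the scan as a random block and by between -0.10 and 0.14 without 1 array, the first without DDC injury replicate 3. Fn1 differed by between -0.179 and 0.0294 without 1 array, the last without DDC injury replicate 1. The cause was not tested. Samples of the same replicate number correlated in their deviations at 0.122, 0.0358 and 0.0831, so the numbers were not taken to pair the samples. No-injury replicate 2 correlated best with DDC injury replicate 3. With a replicate block and all 6 arrays separate, 4 probes of the fate factors rose and 1 fell, 2 other mesenchymal factors fell, and over all probes 4360 rose and 4200 fell, against 4243 and 3788. Over all probes, 6207 rose and 5933 fell with all 6 arrays separate, 2770 and 2280 with the scan as a random block, 2956 and 2494 without the filter on dim probes and 2433 and 2221 without DDC injury replicate 3. The median difference of all probes was -0.10, against 0.08 with normexp correction and 0.01 under quantile normalization. Dim probes such as those of Snai1, Grhl2, Twist1 and Ovol1 are limited by signal over background.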
